A study of Homo sapiens with 24 samples.

Results

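The loss of OGG1 in cells that already lack MUTYH was examined by comparing HAP1 cells without both enzymes (genotype MUTYH-/ X OGG1-/, named DKO below) with HAP1 cells without MUTYH alone (MUTYH-/). HAP1 is an established near-haploid human line derived from the leukemia line KBM-7. The members were chosen from the sample labels: 12 of the 24 samples of the series, which give 3 DKO and 3 MUTYH-/ columns among the 12 columns of the deposited table. The other columns are wild-type (WT) and OGG1-/ cells, 3 each. No group received an oxidant or drug. All cells grew in the same medium, and butylated hydroxytoluene and deferoxamine were present while DNA was isolated. The sample titles name 2 clones in each genotype, so the 3 columns of a group are not 3 independent clones, and a p-value below measures the spread between columns. In bins of 1 kb, limma took that spread from the trend over all bins and not from the bin itself. The titles also carry a mark, R1 or R2, that recurs in every genotype, with 1 OG library marked R1 and 2 marked R2. Columns of the table are not tied to these marks, so they could not enter a fit or be compared within. The study's supplement describes the DKO clones as made from an OGG1-/ clone and not from the MUTYH-/ clones, so genotype and clonal lineage cannot be told apart in this comparison.

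8-Oxo-7,8-dihydroguanine (OG) is the most studied oxidation product of guanine in DNA. OGG1 is the glycosylase that removes OG paired with cytosine. When OG has escaped OGG1 and a polymerase has placed adenine opposite it, MUTYH removes that adenine and so gives OGG1 another chance at the lesion. OG-seq tags OG in fragmented DNA with biotin, pulls the tagged fragments down on streptavidin and sequences them next to an untreated input. The deposited value of a bin of 1 kb is the number of OG reads less a scaled number of input reads, called the score here. It can fall below 0. Scores were divided by their mean over all bins of a column, so that 1 is the genome mean of that column, and were compared in 2835235 bins, in windows of 100 kb and over gene bodies.

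The guide used to disrupt OGG1 matched exon 1 of the gene at chr3:9750308-9750330 (GRCh38, minus strand). The target is printed because it fixes the edited position that separates the DKO from the MUTYH-/ cells, with its PAM in capitals:
OGG1 guide target: gtacgatgccccatgcgcctGGG
The bin that holds this site, chr3:9750001-9751000, had a deposited score of 15.98, 21.1 and 26.1 reads in MUTYH-/ columns 1 to 3 and of 27.8, 34.7 and 40.0 in DKO columns 1 to 3. The DKO columns were all higher, by 13.1 reads (SE 4.58, n = 3 each, exact two-sided permutation test p = 0.1, the smallest value that 3 columns against 3 allow). Input reads in the bin overlapped, with 33, 19 and 33 in MUTYH-/ and 33, 34 and 32 in DKO. Counts in bins of 1 kb hold no base-level reads, so the edit itself was not visible. Over the whole OGG1 gene (38 bins, chr3:9749944-9788219) the scaled score was 1.78, 1.40 and 1.89 in MUTYH-/ and 1.43, 2.08 and 0.988 in DKO, and over MUTYH (12 bins) it was 2.62, 1.39 and 1.36 against 1.29, 2.17 and 1.01. Both genes overlapped between the groups.

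Whole OG and input reads could be recovered from the scores in 99.9979 to 99.9994% of the bins of a column. A bin held on average 38.7, 26.6 and 29.9 OG reads in the MUTYH-/ columns and 33.5, 40.2 and 38.5 in the DKO columns, with 27.7 to 31.9 and 34.4 to 35.2 input reads. The mean score was 9.64, 7.80 and 8.26 reads per bin in MUTYH-/ and 8.34, 9.27 and 9.91 in DKO. The difference of 0.604 reads (SE 0.717, exact permutation p = 0.4) was smaller than the spread between columns, and was 0.560 without chromosome 6 from 95 to 170 Mb. It ranged from 0.221 (without MUTYH-/ column 2) to 1.14 (without MUTYH-/ column 1) on leaving out 1 column. Per OG read the mean score ran the other way, at 0.249, 0.293 and 0.276 against 0.249, 0.231 and 0.257 (difference -0.0272, exact permutation p = 0.2). Neither scale separated the groups, so no genome-wide change of the score after loss of OGG1 was detectable with 3 columns each. These means rest on the subtraction of a scaled input and on read numbers, and are not a count of lesions per genome. The segment of chromosome 15 from 65 to 85 Mb, inside the duplication known of HAP1, had a scaled score of 2.04 to 2.58 in all 12 columns.

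Input reads record how much DNA of a place was present, and they differed between the compared columns. In the input, 12 segments of 33 windows stood at 1.5 times the median over columns or more, or at 0.5 times or less, in single columns. A gain was found in all 3 DKO columns, and also in OGG1-/ column 3. It was chr8:140200001-140600000, with TRAPPC9 (a subunit of a vesicle trafficking complex), CHRAC1 (a chromatin remodelling subunit) and AGO2 (the slicer of RNA interference). Its relative input was 2.23, 2.14 and 2.17 in DKO against 1.21, 1.15 and 1.13 in MUTYH-/. ROBO2, which encodes an axon guidance receptor, was almost free of input reads over chr3:77391001-77517000 (126 kb, exons 3 to 5 of 28) in DKO columns 1 and 2 and was covered in DKO column 3.

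Most of the remaining segments set single columns apart within a group. DKO column 3 alone had gains at SEMA3C on chromosome 7 (relative input 2.45) and at the ATM locus, chr11:108300001-108700000 (2.14 against 1.10 to 1.12 in the MUTYH-/ columns), and a loss on chromosome 13. ATM encodes the kinase that responds to double-strand breaks. MUTYH-/ columns 1 and 2 shared a gain of chr19:300001-1000000, which holds 29 protein-coding genes, and a gap of 302 kb in WWOX, chr16:78513001-78815000, which holds no exon of the gene. WWOX encodes an oxidoreductase and spans a common fragile site. MUTYH-/ column 3 lacked a different part of WWOX. The DKO columns, together with OGG1-/ column 3, lacked chr16:78489001-78589000, which partly overlaps the gap of MUTYH-/ columns 1 and 2. In this DKO gap MUTYH-/ columns 1 and 2 held 5.45 and 4.56 input reads per bin, against 18.1 in MUTYH-/ column 3. OGG1-/ columns 1 and 2 were low there as well. The heat map of input reads in these segments shows that columns 1 and 2 of a group mostly went together. The labels do not tie the columns to the named clones.

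**Figure D1:**
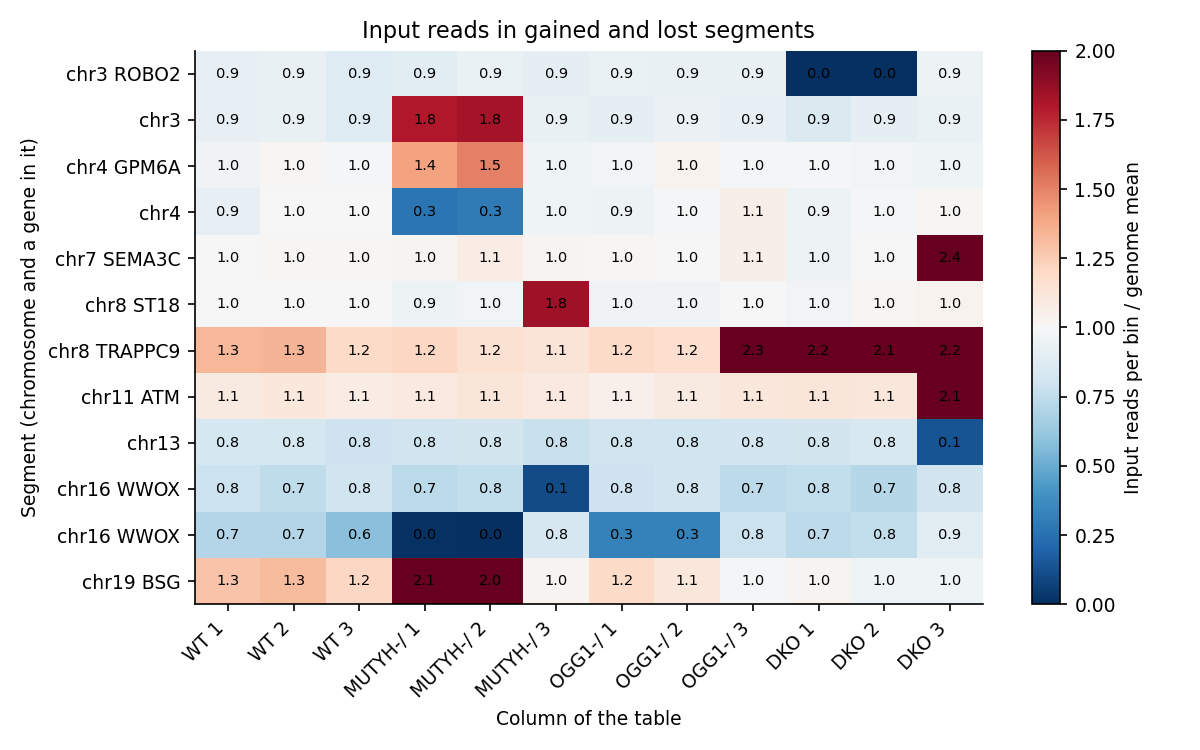
Heat map of input reads per bin relative to the genome mean of each column (colour scale) in the 12 gained or lost segments (vertical axis, chromosome and a gene) in the 12 columns of the table (horizontal axis). The gain at TRAPPC9 is present in DKO columns 1 to 3 and OGG1-/ column 3, and the chromosome 19 gain in MUTYH-/ columns 1 and 2.

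OG reads in DKO column 1 did not follow its input in the gaps. In the ROBO2 gap this column held 2.14 OG reads per bin, 6.40% of its mean, with 0.0317 input reads per bin, or 0.0924% of the mean. In the WWOX gap that all DKO columns carry it held 2.40 OG reads per bin (7.16%), with 0.06 input reads per bin. DKO columns 2 and 3 held at most 0.14 OG reads per bin in the gaps they carry. In both gaps the OG library of DKO column 1 thus held reads that its own input lacked. Their part in the other values of this column was not tested, and a count below is also given without the column where that moves it by more than 1.5 times.

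In windows of 100 kb, 0 of 28395 windows differed between DKO and MUTYH-/ at an adjusted p under 0.05 (limma, Benjamini-Hochberg, 0% of windows). At an unadjusted p under 0.05 there were 1365 windows (4.81%), of which 786 were higher (2.77%) and 579 lower (2.04%) in DKO. The median standard error of a window was 0.126 on the scaled score. In simulated data this fit called 30 of 100 windows changed by 0.5, so smaller changes can be missed. The table held 267 windows at 0 in every column, and of the 29881 bins at 0 in every column 29241 held mostly undetermined sequence. They lowered the degrees of freedom that limma lends to each window from 64.7 to 7.02. With these windows left out, a choice made after seeing the data, 19 of 28128 windows passed (0.0675%), 11 higher and 8 lower. The counts of that fit ranged from 0 (without MUTYH-/ column 2) through 6 (without MUTYH-/ column 1) and 7 (without DKO column 1) to 31 (without DKO column 3), and it gave 0 where only the 6 compared columns entered.

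Of these windows 17 are described here, and 16 of the 17 lay where the mean input of the groups also differed by more than 10%. The interval of chromosome 6 held 9 of the 19, of which 7 were higher and 2 lower. The 7 higher ones included those with WASF1 (a regulator of actin assembly), CCN2 (a matricellular growth factor gene), HIVEP2 (a zinc-finger transcription factor gene) and ESR1 (the estrogen receptor alpha gene), and their input ratio of DKO to MUTYH-/ was 1.13 to 1.29. The CCN2 window stood at 0.679, 0.570 and 0.730 in MUTYH-/ and at 1.69, 1.60 and 0.847 in DKO (difference 0.720, SE 0.138, adjusted p = 0.0124). DKO column 3 was close to MUTYH-/ there, and columns 1 and 2 were far above. Outside the interval, the higher windows were 3 in TRAPPC9, with differences of 1.03 to 1.12 and input ratios of 1.88 to 1.95, and 1 in WWOX, where MUTYH-/ columns 1 and 2 had almost no input. The lower windows outside were 5 neighbours on chromosome 19 from 500001 to 1000000, where MUTYH-/ columns 1 and 2 carried the input gain, and 1 on chromosome 17. Divided by input, as the log2 ratio of OG to input reads, none of the 17 windows passed (smallest adjusted p 0.481), and 0 of 28126 windows (0%) passed in that fit as a whole, with 938 at an unadjusted p under 0.05. In the 7 higher windows of chromosome 6 the ratio was still higher in DKO, by 0.0993 to 0.164 (limma, unadjusted p 0.00206 to 0.0550). It was lower in DKO in the windows of chromosomes 19 and 17, and turned sign in those of TRAPPC9 and WWOX. These windows were selected on the score, which shares reads with the ratio.

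**Figure D2:**
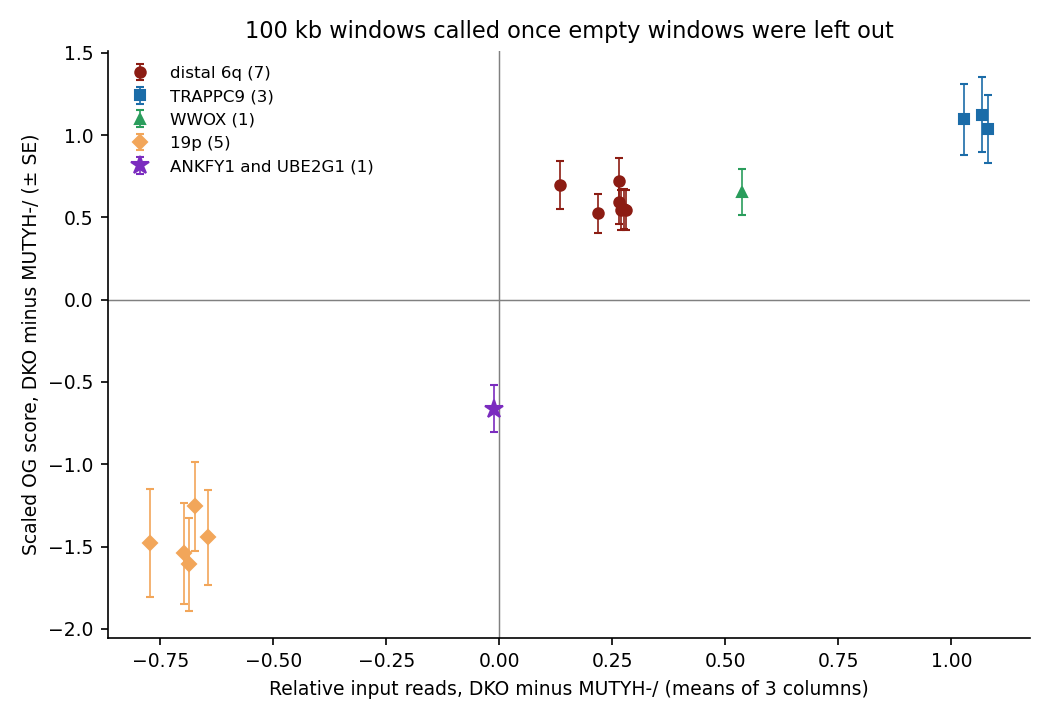
Difference of the scaled OG score, DKO minus MUTYH-/ (vertical axis, bars are the standard error), against the difference of relative input reads (horizontal axis) for 17 windows that passed without the empty windows. The star marks chr17:4200001-4300000, the window whose input difference is near 0, and all others lie away from 0 on the horizontal axis.

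The window with even input was chr17:4200001-4300000, which holds ANKFY1 (an endosomal Rab5 effector gene) and UBE2G1 (a ubiquitin-conjugating enzyme gene). Its scaled score was 1.60, 1.495 and 1.60 in MUTYH-/ and 1.02, 0.716 and 0.978 in DKO. The groups were far apart, and the 3 MUTYH-/ columns also lay above WT (1.13 to 1.39) and OGG1-/ (1.03 to 1.40). The difference was -0.66 (SE 0.142, adjusted p = 0.0318 without the empty windows, SE 0.125 and adjusted p = 0.996 with them). Relative input was 1.17, 1.14 and 1.13 in MUTYH-/ and 1.14, 1.13 and 1.13 in DKO. The log2 ratio of OG to input was 0.129, 0.125 and 0.158 against -0.0388, -0.125 and -0.0525, again without overlap (adjusted p = 0.481).

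The windows outside the interval of chromosome 6 with the strongest evidence in the fit over all windows did not pass it. On the higher side these were 5 windows, among them 1 of those in TRAPPC9 and chr6:32500001-32600000 with HLA-DRB5 and HLA-DRB1, which encode class II antigen-presenting chains. This window lay below the genome mean in every column, at 0.346, 0.336 and 0.281 in MUTYH-/ and 0.504, 0.547 and 0.483 in DKO (difference 0.19, SE 0.0339, adjusted p = 0.996). HLA genes are near-copies of each other, so their reads are uncertain. On chromosome 2 the window from 136300001, with no protein-coding gene in it, stood at 0.926, 0.709 and 1.04 in MUTYH-/ and 1.30, 1.51 and 1.41 in DKO (adjusted p = 0.996). Windows without such genes on chromosomes 5 and 7 differed by 0.39 and 0.44. On the lower side, chr16:21600001-21700000 with METTL9, IGSF6 and OTOA stood at 1.75, 1.504 and 1.39 in MUTYH-/ and 1.04, 1.04 and 1.10 in DKO. The window chr17:36400001-36500000 with ZNHIT3 and MYO19 stood at 2.12, 1.66 and 1.64 against 1.11, 1.26 and 1.21. A window on chromosome 3 and the X window with PAGE5 and PAGE3 differed by -0.28 and -0.34. Groups that do not overlap were found in 4.84% of windows on the higher side and 3.55% on the lower side, so such a separation alone was common.

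The distal long arm of chromosome 6, from 95 to 170 Mb (74928 bins, 750 windows), was compared as a block because its DNA content differed between columns. The scaled score was 0.862, 0.924 and 0.932 in MUTYH-/ and 1.196, 1.17 and 0.924 in DKO. DKO columns 1 and 2 were high and DKO column 3 lay within the MUTYH-/ values, so the groups overlapped (difference 0.19, SE 0.089, exact permutation p = 0.2). Relative input reads had the same shape, at 0.982, 0.993 and 0.992 in MUTYH-/ and 1.31, 1.33 and 1.00 in DKO. The log2 ratio of OG to input was -0.0443, -0.0297 and -0.0243 against -0.0302, -0.0409 and -0.0296 (difference -0.00083, SE 0.00703, exact permutation p = 0.9). In single windows of the interval, DKO column 1 exceeded all MUTYH-/ columns in 566, column 2 in 510 and column 3 in 196 of 750.

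The rise of input along the chromosome was gradual. From 70 to 80 Mb, DKO columns 1 and 2 stood at 0.981 and 0.999, already above the other 4 compared columns (0.924 to 0.954). From 100 to 110 Mb they had reached 1.19 and 1.22, and from 130 to 140 Mb 1.40 and 1.43. DKO column 3 stood at 1.02 in that last block. The profile of chromosome 6 shows the score rising with the input in DKO columns 1 and 2, while the ratio does not set them apart. The ratio itself varied along the chromosome in both groups. From the block of 60 to 70 Mb to that of 160 to 170 Mb it went from -0.121 to 0.0125 in DKO column 2. In MUTYH-/ column 1 it went from -0.126 to 0.00248. Without the interval and with the scores divided by the mean outside it, 0 of 27645 windows passed, and 1202 had an unadjusted p under 0.05.

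**Figure D3:**
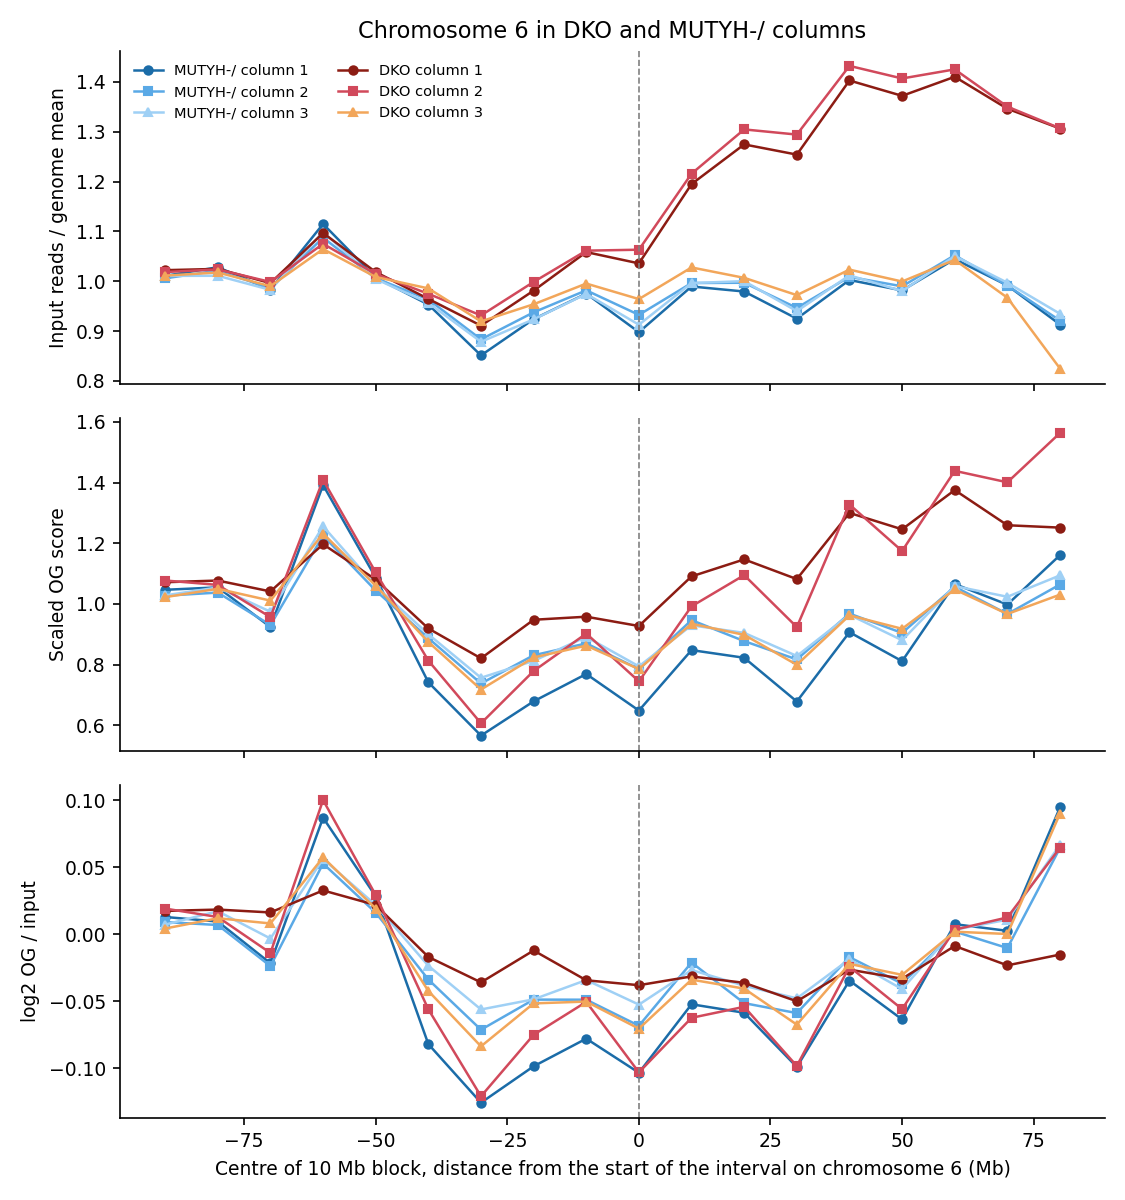
Chromosome 6 in blocks of 10 Mb (horizontal axis, distance of the block centre from the start of the interval in Mb, dashed line at 0) for the 3 MUTYH-/ and 3 DKO columns, with the scaled score, relative input reads and log2 OG to input ratio in separate panels. DKO columns 1 and 2 lie above the other columns in input from the block of 70 to 80 Mb on, before the dashed line, and in score from the block of 100 to 110 Mb on, and the ratio does not separate them.

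Genes of distal 6q were followed in a list of 21, of which 20 had at least 5 bins and 0 passed an adjusted p under 0.05 (0.00346% of all gene bodies did, as given below). The DKO mean was higher in 19 and lower in 1, with a median difference of 0.184 beside -0.0191 over all genes tested. At an unadjusted p under 0.05, 3 of the list were higher and none lower: HDAC2, a histone deacetylase (0.33), ESR1 (0.30) and SYNE1, which encodes a nuclear envelope spectrin-repeat protein (0.29). Over all genes 2.33% were higher and 2.88% lower at that level. The first 4 genes of the list had smaller differences, of 0.13 for PRDM1 (a transcriptional repressor), 0.05 for ATG5 (autophagy), 0.03 for FOXO3 (a forkhead transcription factor) and 0.20 for FYN (a Src-family kinase). The lowest was TNFAIP3, a regulator of NF-kB signalling, at -0.26. The median of the list was 1.01, 0.972 and 1.05 in MUTYH-/ and 1.33, 1.27 and 0.954 in DKO, so the list had the shape of its chromosome arm.

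Among the 23 chromosomes the scaled score did not overlap between groups in 5, higher in DKO on chromosomes 11 and 21 and lower on chromosomes 7, 9 and 12. None passed the exact permutation test after adjustment (smallest adjusted p 0.46, smallest raw p 0.1). Chromosome 11 stood at 1.028, 0.997 and 1.021 in MUTYH-/ and 1.034, 1.063 and 1.033 in DKO. With the interval of chromosome 6 left out and the scores rescaled, 2 chromosomes remained without overlap, 11 and 21. Input reads did not overlap on 12 chromosomes, higher on 4 (6, 11, 20 and 21) and lower on 8. On the log2 ratio of OG to input, 0 of the 23 chromosomes separated the groups, with differences between -0.0144 and 0.00694.

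Chromosome 20 had the plainest shift of input outside chromosome 6. Its relative input was 1.05, 1.03 and 1.04 in MUTYH-/ and 1.12, 1.11 and 1.11 in DKO, and 126 of its 612 windows had higher input in DKO at an adjusted p under 0.05. Its scaled score was 1.25, 1.12 and 1.12 against 1.18, 1.32 and 1.24, with an overlap (difference 0.0822, SE 0.0582, exact permutation p = 0.3). With each GC stratum set to the same mean in every column, the overlap was gone (1.02, 1.00 and 1.00 against 1.07, 1.10 and 1.09). On the X chromosome input was lower in DKO (0.935, 0.938 and 0.896 against 0.952, 0.958 and 0.954, exact permutation p = 0.1). Over the genome, input reads alone differed in 914 of 28395 windows (3.22%), higher in 688 (2.42%) and lower in 226 (0.796%), and 405 of these windows lay in the interval of chromosome 6. That count was 1397 without DKO column 3 and 23 without MUTYH-/ column 1, 29 without MUTYH-/ column 2, 76 without DKO column 2, 109 without MUTYH-/ column 3 and 119 without DKO column 1.

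In bins of 1 kb, differentially enriched regions (OG-DERs) were called, with the thresholds of the study, where the log2 difference exceeded 0.5 either way and p before adjustment did not exceed 0.01. The study applied these thresholds to reads over genomic features, each knockout against WT, and with another model. There were 17835 in 2802495 bins tested (0.636%), 8969 higher (0.320%) and 8866 lower (0.316%) in DKO, an even split. With no difference at all, 1% of bins would be expected at a p of at most 0.01, more than the share found. An OG-DER is therefore not by itself evidence of a change. Only 28 bins (0.000999%) passed an adjusted p under 0.05, 2 higher and 26 lower. In simulated data this fit called 1 of 66 bins changed by 6 on the log2 scale, so few calls do not show few changes. The split of the 28 bins was not steady. It was 25 higher and 19 lower without MUTYH-/ column 1, 6 higher and 15 lower without DKO column 1, and 83 higher and 81 lower with no filter on low values. Bins of the interval on chromosome 6 were OG-DERs on the higher side in 0.496% and outside it in 0.315%, and on the lower side in 0.185% and 0.320%. Leaving the interval of chromosome 6 out gave 17376 OG-DERs. Chromosome 15 had the highest rates of all chromosomes, at 0.968% higher and 1.11% lower. Its segment from 65 to 85 Mb had a relative input of 2.08 to 2.16 over the columns, and a link to these rates was not tested. The split of OG-DERs also moved with the columns: without MUTYH-/ column 1 there were 12464 higher and 5260 lower, and without DKO column 1 there were 4769 higher and 9415 lower.

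The largest gain among OG-DERs was chr2:54664001-54665000 in SPTBN1, the gene of a beta-spectrin. Its deposited score was -9.77, -8.77 and -2.65 reads in MUTYH-/ and 32.1, 41.3 and 41.0 in DKO (log2 difference 5.20, SE 1.51, adjusted p = 0.983). OG reads were 43, 21 and 28 against 52, 64 and 58, and input reads were 58, 44 and 44 against 27, 26 and 21. So both terms of the subtraction moved, in opposite directions. The largest loss was chr17:4234001-4235000 in ANKFY1, inside the window described above, with 36.9, 27.7 and 58.4 in MUTYH-/ and -1.76, -1.81 and -3.96 in DKO (log2 difference -5.34, SE 1.44, adjusted p = 0.983).

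The same shape held over OG-DERs as a set, which the call itself selects. In gains, relative input was 1.35, 1.31 and 1.33 in MUTYH-/ and 1.02, 1.00 and 1.01 in DKO, and relative OG reads were 0.961, 0.831 and 0.873 against 1.45, 1.40 and 1.43. In losses, relative input was 1.06, 1.05 and 1.05 in MUTYH-/ and 1.36, 1.36 and 1.34 in DKO. Of gains, 42.3% were at or below 0 in all 3 MUTYH-/ columns, against 1.98% of bins tested, and of losses 38.5% were at or below 0 in all 3 DKO columns, against 1.84%. OG-DERs made up 2.52% of the tested bins in the 12 input segments, beside 0.636% of all bins tested. Of the 49 losses in these segments 41 lay in that of chromosome 19, and of the 33 gains 16 lay in that of TRAPPC9. When bins were split into 5 classes by GC content, the class with the highest GC held 0.518% gains and 0.570% losses, and the class with the lowest 0.165% and 0.196%. CpG islands, GC-rich stretches often found at promoters, held 0.213% gains and 0.475% losses, and promoters 0.463% and 0.421%. Only 90 pairs of gains and 122 pairs of losses were next to each other.

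Among the 28 bins with an adjusted p under 0.05, the one with the smallest was chr1:228558001-228559000 with the 5S pseudogene RNA5SP162, named after its values were seen. Fewer than 500 bases of this bin are determined in the reference sequence, so it was given no GC content. Its score was 219, 68.7 and 244 reads in MUTYH-/ and -61.0, 283 and 181 in DKO (log2 difference -2.18, SE 0.117, adjusted p = 4.4e-71). The groups overlapped, with DKO column 1 the lowest and DKO column 2 the highest of the 6. The SE and p of a bin come from the trend over all bins, so they do not reflect this spread. The larger of the 2 gains was chr10:128464001-128465000, outside genes. Its score was -12.5, 9.03 and 19.8 reads in MUTYH-/ and 112, 77.96 and 84.5 in DKO (log2 difference 3.796, SE 0.392, adjusted p = 1.6e-16). WT columns held 124, 91.5 and 133 and OGG1-/ columns 83.4, 46.0 and 80.4, so the MUTYH-/ columns were the low ones of the 12. Without MUTYH-/ column 1 the log2 difference was 2.48. The other higher bin was in CCDC33 on chromosome 15, inside the segment from 65 to 85 Mb (log2 difference 2.82, SE 0.558, adjusted p = 0.044). It ranged from 1.26 (without MUTYH-/ column 1) to 3.74 on leaving out 1 column, and passed without MUTYH-/ column 2 or 3 but not without any of the other 4. Of the 26 lower bins, 20 had DKO column 1 as the lowest of 12 columns and 17 had it at or below 0, while groups did not overlap in 5. The number of 28 became 90 without DKO column 2, 69 without DKO column 3, 51 without MUTYH-/ column 2 and 44 without MUTYH-/ column 1. A cluster of 6 of the 28 bins lay at the array of 17 5S rRNA genes on chromosome 1 (228610268 to 228646158), where near-identical copies share reads. In its bin from 228631001 the score was 71.5, 28.0 and 107 in MUTYH-/ and -6.93, 18.4 and 44.8 in DKO, which overlap. The separated loss with the smallest adjusted p, also named after its values were seen, was chr21:8988001-8989000, outside genes, with 248, 161 and 182 against 96.1, 86.99 and 122 (log2 difference -1.04, SE 0.0701, adjusted p = 1.5e-43). Over the 12 columns this bin held 86.99 to 274 reads, far above the mean over all bins of 7.04 to 9.91. Whether near-identical copies share its reads was not tested. The loss largest in log2 size was chr15:88680001-88681000, with 61.9, 35.7 and 74.2 against -1.38, 5.07 and -2.70 (log2 difference -4.98, SE 0.99, adjusted p = 0.0494). The median GC of the 28 bins, leaving out the bin without a GC content, was 64.5% beside 39.9% over all bins tested. A G-quadruplex motif lay in 15 of them and in 9.80% of all tested bins, and a CpG island overlapped 12 of them and 1.32% of all tested bins.

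How the score followed GC content differed as much within a group as between groups. Per 10 points of GC, the scaled score of windows rose by 0.796, 0.441 and 0.426 in MUTYH-/ and by 0.332, 0.719 and 0.476 in DKO (difference -0.0452, SE 0.165, exact permutation p = 0.7). MUTYH-/ column 1 and DKO column 2 were steep and DKO column 1 was the flattest. In the highest of 5 classes of windows by GC (44.7 to 64.0%) the score was 1.66, 1.37 and 1.35 against 1.28, 1.59 and 1.40. In the lowest class it was 0.571, 0.746 and 0.759 against 0.783, 0.583 and 0.724.

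**Figure D4:**
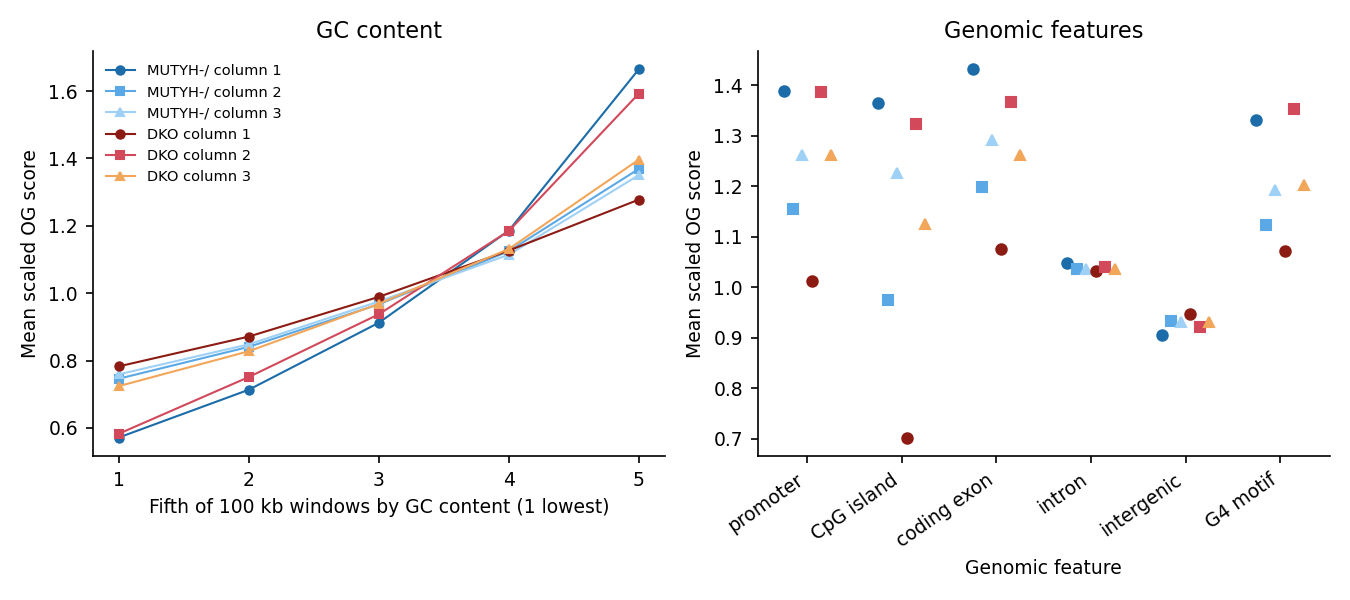
Mean scaled OG score in 5 classes of 100 kb windows by GC content (left, 1 is the lowest class) and in bins of genomic features (right) for each of the 3 MUTYH-/ and 3 DKO columns. The columns of both groups interleave in every class and every feature, and DKO column 1 is the lowest in promoters, CpG islands, coding exons and G4 motifs.

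Genomic features overlapped between the groups as well. CpG islands had the widest spread, at 1.37, 0.975 and 1.23 in MUTYH-/ and 0.702, 1.32 and 1.13 in DKO (difference -0.138, SE 0.216, exact permutation p = 0.6). Promoters stood at 1.39, 1.15 and 1.26 against 1.01, 1.39 and 1.26. Introns hardly varied, at 1.05, 1.04 and 1.04 against 1.03, 1.04 and 1.04. Over the 6 features no adjusted p of the exact permutation test was under 0.84, and with 3 columns against 3 none could have been under 0.1. DKO column 1 was the lowest of the 6 columns in promoters, CpG islands, coding exons and bins with a G-quadruplex motif.

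Over gene bodies, 1 of 28932 genes passed (0.00346%), and 1508 (5.21%) had an unadjusted p under 0.05. The gene was UQCRFS1 (ENSG00000169021.6, chr19:29205320-29213151, 8 bins), which encodes the Rieske iron-sulfur subunit of respiratory complex III. Its scaled score was -0.305, -0.201 and -0.0762 in MUTYH-/ and 1.19, 1.28 and 1.46 in DKO (difference 1.505, SE 0.14, adjusted p = 0.0102). All MUTYH-/ columns were below 0 and all DKO columns above the genome mean. WT lay between, at 0.730, 0.281 and 0.458, as did OGG1-/ at 0.913, 0.596 and 0.869. The 8 bins held 203, 110 and 199 OG reads in MUTYH-/ and 246, 329 and 291 in DKO, and 249, 180 and 293 input reads against 227, 263 and 215. The log2 ratio of OG to input gave an adjusted p of 0.0563. The difference stayed between 1.43 and 1.57 on leaving out any of the 6 columns, but the call was lost each time, as it was with only the 6 columns in the fit. With at least 20 bins required of a gene, UQCRFS1 was not tested.

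**Figure D5:**
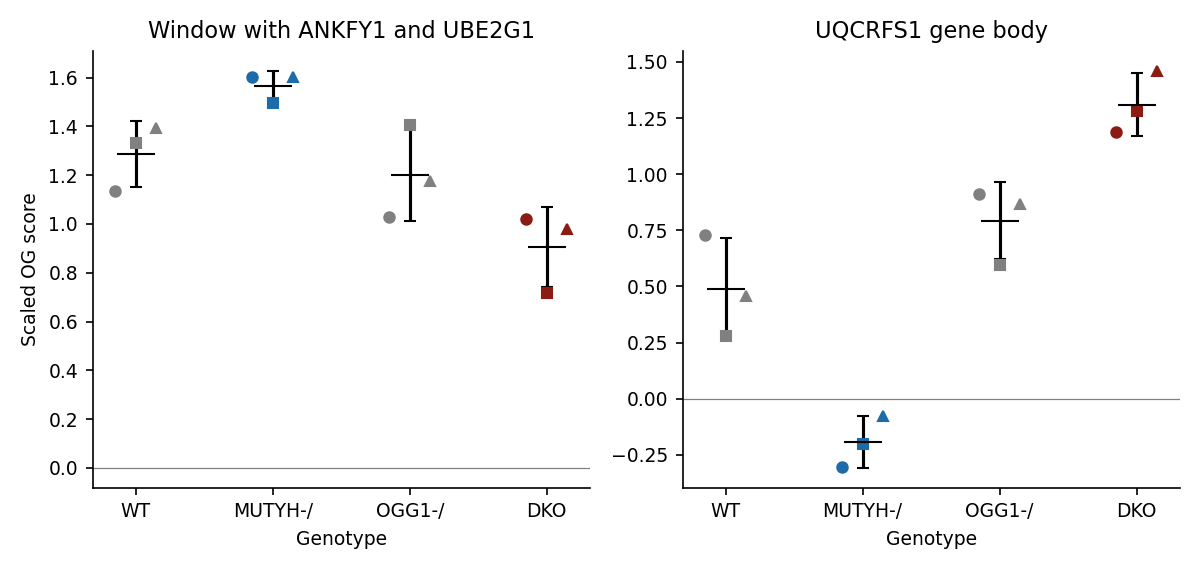
Scaled OG score of each column (points) with the group mean and SD (n = 3) in WT, MUTYH-/, OGG1-/ and DKO cells for the gene body of UQCRFS1 and for the window chr17:4200001-4300000 with ANKFY1 and UBE2G1. MUTYH-/ columns lie below all other columns in UQCRFS1, and above all other columns in the chromosome 17 window.

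The next protein-coding genes by evidence did not pass. On the higher side, COX7A2 (a cytochrome c oxidase subunit) stood at 0.680, 0.262 and 1.17 in MUTYH-/ and 1.56, 1.82 and 1.92 in DKO (difference 1.06, SE 0.194, adjusted p = 0.600). HCCS, the holocytochrome c synthase gene on X, stood at 0.672, 0.706 and 0.478 against 2.22, 1.65 and 1.498 (adjusted p = 0.827). BCDIN3D (an RNA methyltransferase) and WFDC5 differed by 0.99 and 1.86. On the lower side, BSG, which encodes the membrane glycoprotein basigin, stood at 5.15, 3.64 and 2.68 against -0.0882, 0.930 and 1.34 (difference -3.09, SE 0.599, adjusted p = 0.600). BSG lies in the gained segment of chromosome 19, with a relative input of 1.75, 1.68 and 0.928 in MUTYH-/ and 1.08, 0.912 and 0.876 in DKO. BBS7 (a Bardet-Biedl complex subunit), OR7A17 (an olfactory receptor), IL7R (the interleukin-7 receptor) and MAPK11 (a p38 kinase) differed by -0.60, -1.01, -0.80 and -1.17. In OR7A17 the OGG1-/ columns were also low, at 0.386 to 0.492. Genes without overlap between the groups made up 3.96% on the higher side and 4.94% on the lower side.

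Lists of repair and antioxidant genes had 0 members with an adjusted p under 0.05, beside 0.00346% of all gene bodies. Over all gene bodies 5.21% had an unadjusted p under 0.05, 2.33% higher and 2.88% lower. The DKO mean was higher in 13346 and lower in 15586 of them. The 1 member at that level in each list below is near this share. Of 25 genes of OG and base excision repair, 23 were tested, 9 with a higher and 14 with a lower DKO mean, and the median difference was -0.0782 beside -0.0191 over all genes. XRCC1, the scaffold of single-strand break repair, was the only member with an unadjusted p under 0.05, and lower in DKO (2.01, 1.84 and 1.65 against 1.06, 1.28 and 1.44, adjusted p = 0.925). OGG1 and MUTYH are given above, and the glycosylases NEIL1 and NEIL2 differed by -0.46 and 0.30. Of 19 mismatch and nucleotide excision repair genes, all tested, ERCC8, a factor of transcription-coupled repair, was the only member with an unadjusted p under 0.05, with a difference of 0.30, the median difference was 0.00652, and MSH3 and MSH6 differed by 0.08 and 0.14. Of 24 antioxidant genes, 21 were tested, 8 with a higher and 13 with a lower DKO mean, and the median difference was -0.0351. The only member with an unadjusted p under 0.05 was GCLM, the modifier subunit of the enzyme that starts glutathione synthesis. It stood at 1.39, 1.24 and 1.10 in MUTYH-/ and 0.752, 0.475 and 0.648 in DKO (difference -0.62, SE 0.152, adjusted p = 0.827). NFE2L2, NFE2L1, KEAP1 and HMOX1, the NRF factors, the repressor of NFE2L2 and a classic target, differed by 0.06, -0.04, -0.32 and 0.09.

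Whether losing OGG1 had another effect without MUTYH than with it was asked by setting DKO minus MUTYH-/ against OGG1-/ minus WT in the same fit. The difference of both effects passed in 0 of 28395 windows (0%), with 1501 (5.29%) at an unadjusted p under 0.05 and a smallest adjusted p of 0.908. OGG1-/ minus WT gave 0 windows and 1323 at an unadjusted p under 0.05, beside 1365 for DKO minus MUTYH-/. The SD of the effect over windows was 0.14 without MUTYH and 0.137 with it. Without the empty windows, 2 windows passed, chr16:33300001-33400000 with the near-identical genes TP53TG3E and TP53TG3B and chr16:78600001-78700000 in WWOX.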

How the data were processed

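Per the labels and the study's methods, the authors trimmed reads (cutadapt 2.8), aligned them to GRCh38 (Bowtie2 2.3.5.1), counted them in 1 kb bins of chromosomes 1 to 22 and X outside blacklisted regions, and subtracted input scaled by signal extraction scaling. The deposited score is thus OG reads less scaled input reads, can be negative, and is not a count, so no count model was used. All 12 columns of the table were used.

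Each column was divided by its mean over all bins. Windows of 100 kb (at least 50 bins) and gene bodies (at least 5 bins whose centres lie inside) were averaged and tested with limma 3.58.1 (trend, all 12 columns, contrast DKO minus MUTYH-/) in R 4.3.3, with Benjamini-Hochberg adjustment at 0.05. Bins of 1 kb above 0 in at least 3 columns were tested with limma on log2(scaled value + 1 read), with values below 0 set to 0. Single values were compared by exact two-sided permutation tests over 3 against 3 columns, whose smallest p is 0.1. A score proved to be a whole number of OG reads less whole input reads in 2 parts, each times a factor fixed per column, which was solved per bin with Python 3.11.15 to recover both. The compared columns summed to between 75481950 and 113900874 OG reads, and to between 78615545 and 99765925 of input. Errors given are those between columns, except in bins of 1 kb. There limma put the trend over all bins in place of a bin's own spread, with infinite prior degrees of freedom.

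Named windows and genes were the strongest each way by fold change if called, otherwise the 5 largest by the limma statistic outside the chromosome 6 interval, and named bins were the largest OG-DER each way and up to 5 bins each way at an adjusted p under 0.05. Each list was counted in full and its first 4 members named where reported, and some genes, windows and input segments are not reported here. Members, lists and tests were chosen with earlier results of these data known. CpG islands and G-quadruplex motifs (4 runs of at least 3 G or C with short loops) were found in the reference sequence. The fits were tested on simulated data with changes of known size. In windows, 30 of 100 changes of 0.5 and 93 of 100 changes of 1 were called. In gene bodies, 37 of 100 changes of 1 and 80 of 100 changes of 2 were called. In bins, 0 of 68 log2 changes of 2, 0 of 66 of 4 and 1 of 66 of 6 were called. A bin that did not pass may thus hold a change of such a size. Alternatives covered scaling, filters, GC strata, recovered reads, fewer columns and a replicate block.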

Additional observations from a re-analysis of the deposited data

Results flagged for a closer look

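In the fit without the empty windows, the effect of losing OGG1 differed between the MUTYH-/ and the MUTYH-proficient background in 2 windows. In chr16:33300001-33400000, which holds the near-identical genes TP53TG3E and TP53TG3B, DKO minus MUTYH-/ was -0.58 and OGG1-/ minus WT was 0.80, a difference of -1.38 (limma, adjusted p = 0.0458). The scores were 0.229, 1.07 and 0.833 in DKO, 0.984, 1.01 and 1.88 in MUTYH-/, 1.69, 1.25 and 2.27 in OGG1-/ and 0.801, 1.62 and 0.409 in WT, at a relative input of 0.441 to 0.488 in all columns. In chr16:78600001-78700000 in WWOX the difference was 1.10 (adjusted p = 0.0458), and there MUTYH-/ columns 1 and 2 and OGG1-/ columns 1 and 2 had a relative input of at most 0.0119.

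Data outside the score comparison also held signal. DKO column 1 held 2.14 OG reads per bin in the ROBO2 gap and 2.40 in the WWOX gap, where its input held at most 0.06 reads per bin. Input reads differed between DKO and MUTYH-/ in 914 windows, and 12 segments were gained or lost in the input of some columns, with gains in the interval of chromosome 6 not listed. Groups of 3 columns were not searched for outlying samples.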

How the results depend on the processing

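With 0 windows called in the fit as planned, 1 was called with bins below 0 set to 0, 25 (13 higher, 12 lower) with GC strata removed, 320 (278 higher, 42 lower) on OG reads alone, and 19 without the empty windows. The last fit gave 0 with 6 columns and 9 without the interval of chromosome 6. The difference of effects gave 1 window with GC strata and 2 without empty windows. Genes went from 1 to 0 with 6 columns, with no filter, with at least 20 bins and on the OG to input ratio. The setting of at least 20 bins leaves out UQCRFS1, which has 8, so it could not be called there. OG-DERs numbered 6314 with 6 columns, 30014 with no filter and 32049 on the linear scale, and 28 bins passed an adjusted p under 0.05, a number that became 74, 164 and 1 under those choices, 5 with a pseudocount of 5 reads and 11 with GC strata. The causes were not tested.

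Leaving out 1 column at a time gave 0 to 4 windows (4 without DKO column 3) and 0 to 31 without empty windows. It gave 0 to 2 on the ratio (2 without DKO column 1) and 23 to 1397 on input. The difference of effects gave 0 to 1 (1 without DKO column 2). There were 0 to 0 genes, 14184 to 17724 OG-DERs and 21 to 90 adjusted bins. The GC slope difference ranged from -0.15 to 0.0757, and reversed without MUTYH-/ column 1 (0.0757) or DKO column 1 (0.0431). Promoters ranged from -0.132 to 0.0552 (0.0117 without MUTYH-/ column 1), G4 bins from -0.078 to 0.0623 (0.052 without MUTYH-/ column 1, and 0.019 with GC strata), CpG islands from -0.275 to 0.036 and coding exons from -0.139 to 0.00711, each highest without DKO column 1. OGG1 ranged from -0.48 to 0.0636, highest without DKO column 3, and MUTYH from -0.642 to 0.112, highest without MUTYH-/ column 1. On the log2 OG to input ratio the sign turned in the interval of chromosome 6 (-0.000827), in TRAPPC9 windows (-0.00874, -0.0499 and -0.0225) and the WWOX window (-0.413), where MUTYH-/ columns 1 and 2 had a relative input of 0.00376 and 0.00793, so that its ratio rests on almost no reads. The mean score also turned per OG read (-0.0272). Without the interval, 2 chromosomes did not overlap, and with GC strata 2 features did not (introns lower, intergenic bins higher).

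Columns with the same number did not vary together (r = -0.413, -0.276 and 0.0579), so the number was not taken as a pairing. This does not bear on the marks R1 and R2 of the titles, to which columns are not tied. With the replicate block 0 windows, 13 windows without the empty ones, 1 gene and 17731 OG-DERs were called. The number of columns and the reads per bin limit what could be seen.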
